A study of Mus musculus with 6 samples.

Results

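Skeletal muscle fibres are built from protein isoforms that come in fast and slow versions, and 10 genes of this kind were followed in back skin of the tight skin mouse (TSK) and of its wild-type littermates (WT). They were picked by gene name from the 55291 genes in the count table. The 6 fast genes were Myh1, Myh2, Myh4, Tnni2, Tnnt3 and Tnnc2, and the 4 slow genes were Myh7, Tnni1, Tnnt1 and Tnnc1. All 10 passed the filter on low counts, which left 19971 genes for testing. To compare the skin of the genotypes, bulk RNA of the shaved dorsal skin was sequenced as 1 library per mouse, with 3 mice in each group. The labels give the C57BL/6 strain and an age of 6 to 8 weeks for both groups. TSK mice carry a duplication within Fbn1, which encodes fibrillin 1 of the microfibrils, in every cell of the body rather than in a chosen tissue, and no group received a treatment.

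Contraction depends on the myosin heavy chains, the motor proteins of the thick filament, and on the troponin complex, the calcium switch of the thin filament. Troponin C binds calcium, troponin I holds back contraction at rest, and troponin T ties the complex to tropomyosin. Each exists as separate fast and slow gene products, and a fibre is typed by its myosin: Myh4 in the fastest type (2B), Myh1 in type 2X, Myh2 in type 2A, which is fast but rich in mitochondria, and Myh7 in slow fibres. Mouse back skin contains a thin sheet of skeletal muscle under the dermis, the panniculus carnosus, which is mostly fast.

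Library totals were 17561453 to 19219814 estimated counts per library. The labels call the mice female while the study's methods call them male, and all 6 libraries held RNA of Y-linked genes (Ddx3y at 56.7 to 72.7 CPM, counts per 1000000 of a library's total) with Xist, the RNA of the inactive X of female cells, at 2.57 to 4.58 CPM. These are the values of male skin, as in the methods. Fbn1, the mutated gene, stood at 262 to 288 CPM in WT and 1538 to 2285 CPM in TSK, a log2 fold change (TSK minus WT) of 2.54 (SE 0.22, edgeR's quasi-likelihood test with Benjamini-Hochberg adjustment, adjusted p = 0.00327, where 2.71% of all genes were called higher). The 6 markers of heart muscle were low or at 0: Nppa and Myl7 had no count, Nppb had counts in 1 of 6 libraries, Tnni3 reached 1.75 CPM, Myh6 reached 2.07 CPM and Ryr2 was at 2.186 to 7.71 CPM. In Ryr2 every TSK library lay above every WT library on CPM, where 29.1% of all genes were higher in this way (log2 fold change 0.67, SE 0.26, edgeR adjusted p = 0.195). The part of other skin tissue in the results below was not tested. The summed level of the 6 fibroblast markers was 6323 to 9623 CPM in WT and 20326 to 47271 CPM in TSK, and 0 of the 6 were called by edgeR. At an unadjusted p below 0.05, 4 of them were higher (12.1% of all genes). DESeq2 called 4 (7.48% of all genes), edgeR with library size only 5 (8.90%), and limma-trend 5 in either form (9.37% and 9.31%). The summed level of the 5 adipocyte markers was 65.2 to 101 CPM in WT and 290 to 1487 CPM in TSK. Of these 5, edgeR called 3 higher (2.71% of all genes), and DESeq2 called 5 (7.48%). With edgeR 1 was called without WT 1 (6.13% of all genes) and 0 without WT 2 (1.39%) or WT 3 (0.290%). All 5 were called without TSK 1, TSK 2 or TSK 3 (2.56%, 1.86% and 1.90%). The summed level of the 5 keratinocyte markers overlapped, at 3711 to 7163 CPM in WT and 3968 to 6702 CPM in TSK. Of the 5 smooth muscle markers 4 had log2 fold changes above 0 (47.0% of all genes), and 1 was called higher (2.71% of all genes). This was Myh11, the smooth muscle myosin, at 26.2 to 41.7 CPM in WT and 63.7 to 78.6 CPM in TSK (log2 fold change 0.79, SE 0.16, edgeR adjusted p = 0.0366). That call was lost without WT 2, WT 3 or any of the TSK libraries. In bulk tissue, fewer fibres and less RNA per fibre cannot be told apart.

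The skin of both genotypes held chiefly fast fibre RNA, led by the 2B myosin. Per kilobase of exon, which allows genes of different length to be compared, Myh4 stood at 5897 ± 885 CPM per kb in WT and 3396 ± 470 in TSK (SD, n = 3). Tnnc2, the fast troponin C, came next at 4537 ± 770 and 3115 ± 281 CPM per kb. Its range overlapped that of Myh4 within both groups, but it lay below Myh4 in each library. Tnni2, the fast troponin I, followed at 2580 ± 576 and 1865 ± 158 CPM per kb, and then Myh1 at 753 ± 297 and 1006 ± 115. The order of the next pair differed between the genotypes. In WT, Tnnt3, the fast troponin T, was at 190 to 262 CPM per kb and Myh2 at 62.8 to 106, whereas in TSK Myh2 was at 223 to 349 and Tnnt3 at 159 to 198. The slow genes were the lowest of the 10 in the mean of both groups, between 9.42 CPM per kb for Tnni1 and 30.9 for Tnnc1 in WT, and between 22.7 for Tnni1 and 82.8 for Myh7 in TSK. Their ranges overlapped one another in both groups, but the same libraries can be compared gene by gene. Tnni1 lay below Tnnt1 in each library, as in WT 1 (3.23 and 6.82 CPM per kb) and TSK 2 (45.6 and 110). In WT 2 and every TSK library Tnni1 was the lowest and Tnnt1 the next, whereas Myh7 was the lowest in WT 1 and WT 3. The order of Myh7 and Tnnc1 differed between libraries. Myh2 lay above every slow gene within each library, as in WT 2 (106 CPM per kb against 84.8 for Myh7). The WT range of Myh2 overlapped those of 3 slow genes (Myh7, Tnnt1 and Tnnc1) only because their WT 2 values exceeded Myh2 of other WT libraries. In TSK 2, Tnnt3 (159.249 CPM per kb) and Tnnc1 (159.268) were at nearly the same level.

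**Figure D1:**
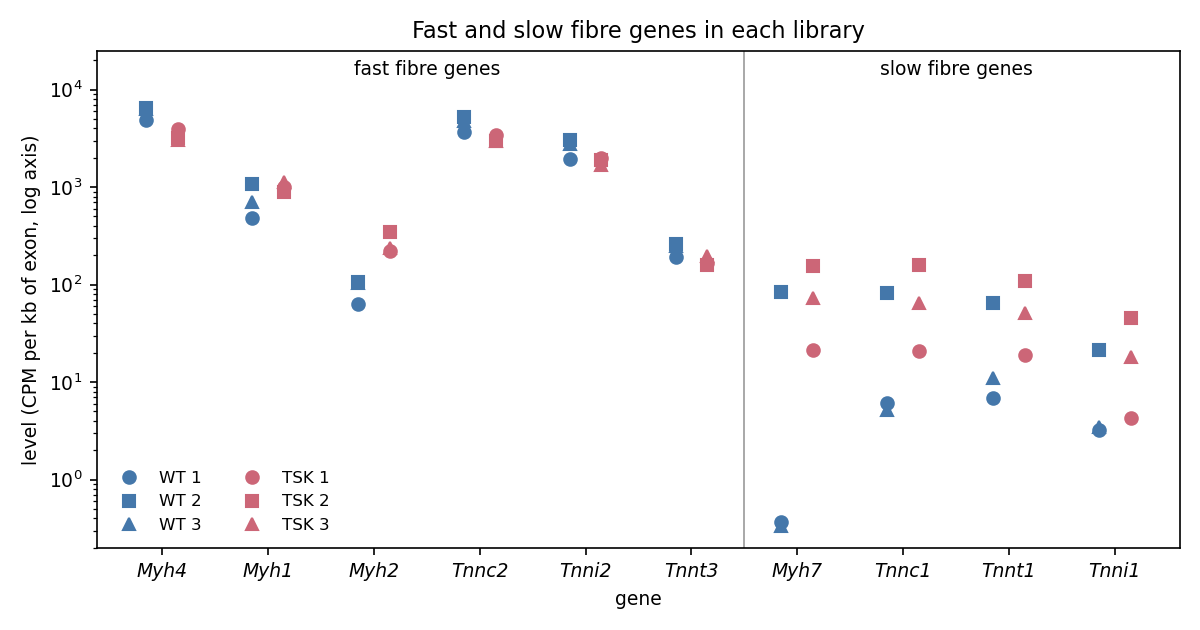
Level of each of the 10 fibre genes in the 6 libraries, in CPM per kb of exon on a log axis, with fast genes to the left, slow genes to the right and 1 point per library. Fast genes differ by 1.65 to 5.55 times between the highest and the lowest library, and slow genes by 14.1 to 463 times.

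Among the 3 fast myosins, Myh4 had a lower, Myh2 a higher and Myh1 an overlapping level in TSK skin, and none passed edgeR's test after adjustment. Myh4 (chromosome 11, 67238029 to 67260446, mm10, plus strand) was at 29398, 39313 and 37719 CPM in WT 1 to 3 and at 23640, 19321 and 18325 CPM in TSK 1 to 3. Every TSK library lay below every WT library, and the fitted log2 difference of -1.09 (SE 0.41) had an edgeR adjusted p of 0.182. Myh2 (chromosome 11, 67171027 to 67197517, plus strand) had 382, 644 and 628 CPM in WT and 1357, 2121 and 1447 CPM in TSK, so that every TSK library lay above every WT library. The mean level was 2.98 times as high in TSK, and the log2 fold change of 1.26 (SE 0.31) had an edgeR adjusted p of 0.067. Myh1 (chromosome 11, 67200052 to 67224575, plus strand), which lies between Myh2 and Myh4, had 3058, 6800 and 4500 CPM in WT and 6363, 5675 and 7141 CPM in TSK. The groups overlapped through WT 2, and the fitted difference was 0.09 on the log2 scale (SE 0.38, edgeR adjusted p = 0.925), or -0.17 without WT 1, its lowest library.

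The 3 fast troponins had lower mean levels in TSK, with fold changes smaller in size than that of Myh4. Tnnc2 (chromosome 2, 164777161 to 164779967, minus strand) had 2588, 3646 and 3294 CPM in WT and 2408, 2069 and 2064 CPM in TSK, with no overlap. Tnni2 (chromosome 7, 142441808 to 142444410, plus strand) had 1813, 2855 and 2569 CPM in WT and 1866, 1785 and 1580 CPM in TSK. Tnnt3 (chromosome 7, 142498836 to 142516009, plus strand) had 222, 307 and 292 CPM in WT and 194, 186 and 232 CPM in TSK. For both Tnni2 and Tnnt3, WT 1, the lowest WT library, fell within the TSK range on this scale, and the groups separated after TMM scaling (a normalization that limits the weight of the most abundant genes). The log2 fold changes were -0.84 for Tnnc2 (SE 0.27), -0.77 for Tnni2 (SE 0.28) and -0.73 for Tnnt3 (SE 0.21), with edgeR adjusted p values of 0.13, 0.174 and 0.102. With library size only they were -0.54, -0.47 and -0.42.

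With edgeR's quasi-likelihood test, 0 of the 10 genes passed an adjusted p of 0.05, where 3.39% of all genes tested did, and none passed the thresholds used in the study (over 2.5 times, at an adjusted p under 0.01), which 0.290% of all genes met. Myh2 met these thresholds with library size only and with limma-trend at either pseudocount (adjusted p = 0.0081, 0.00597 and 0.00616), where 1.53%, 1.42% and 1.65% of all genes did, and not with DESeq2. At an unadjusted p below 0.05 there were 5, namely Myh2, Myh4, Tnni2, Tnnt3 and Tnnc2, against 20.0% of all genes (12.1% higher and 7.90% lower). These 5 were called by DESeq2, the tool of the study, at an adjusted p below 0.05 (7.48% of all genes), with values from 0.000122 for Myh4 to 0.0307 for Tnni2. They were also called by edgeR without WT 1 (6.13% of all genes), the WT library with the least fast fibre RNA. Myh2 alone was called when libraries were scaled by size only (8.90% of all genes) and by limma-trend with a pseudocount of 1 or 0.1 (9.37% and 9.31%), and Myh2 and Myh4 were called by edgeR with no filter (3.98%). No member was called with the size factors of DESeq2 in edgeR (3.58%), without WT 3 (0.290%) or without TSK 1, TSK 2 or TSK 3 (2.56%, 1.86% and 1.90%). On the deposited CPM, 1 fast gene did not overlap and was higher in TSK (29.1% of all genes) and 2 did not overlap and were lower (2.58%). After TMM scaling these numbers were 1 (14.1%) and 4 (10.6%).

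Single 50-base reads cannot always tell the myosins apart. Of the 50-base windows along their transcripts, 26.7% in Myh1, 26.9% in Myh2 and 18.9% in Myh4 also occurred in another of these genes or in Myh8 or Myh13, and 22.2% in Myh7 also occurred in another myosin, chiefly Myh6. No window of the 6 troponin transcripts was shared. Reads from such windows may have been divided among genes, so the myosin values are less certain than those of the troponins. Some members also overlap a gene on the opposite strand, and the sources used here do not say whether the counting used strand. Nisch, which overlaps Tnnc1, had 2758 to 5127 counts per library, up to 4181% of the count of Tnnc1 in the same library. Prr33, which overlaps Tnnt3, had up to 34.7% of its count, and the antisense gene Myhas had up to 0.653% of the count of Myh1.

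Within a library, the makeup of the adult myosins can be read without regard to how much muscle the piece of skin held. The share of each myosin was taken in the sum of Myh1, Myh2, Myh4 and Myh7, in CPM per kb. Myh4 made up 90.0%, 83.8% and 88.5% of this sum in WT 1 to 3 and 75.9%, 69.7% and 68.0% of it in TSK 1 to 3. Myh1 made up 8.86%, 13.7% and 10.002% in WT and 19.4%, 19.4% and 25.1% in TSK. Myh2 made up 1.16%, 1.36% and 1.46% in WT and 4.31%, 7.57% and 5.31% in TSK. For these 3 myosins the groups did not overlap: the share of the 2B myosin was lower in each TSK mouse, and those of the 2X and 2A myosins were higher. The mean share of Myh4 was 87.4% ± 3.22 in WT and 71.2% ± 4.18 in TSK, that of Myh1 was 10.9% ± 2.55 and 21.3% ± 3.30, and that of Myh2 was 1.32% ± 0.153 and 5.73% ± 1.67 (SD, n = 3). Each of the 3 differences reached the smallest p that 3 libraries against 3 can give (exact permutation test, two-sided, p = 0.1, and 0.133 adjusted over the 4 myosins). The 4 shares sum to 100%, so they are not independent of one another.

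**Figure D2:**
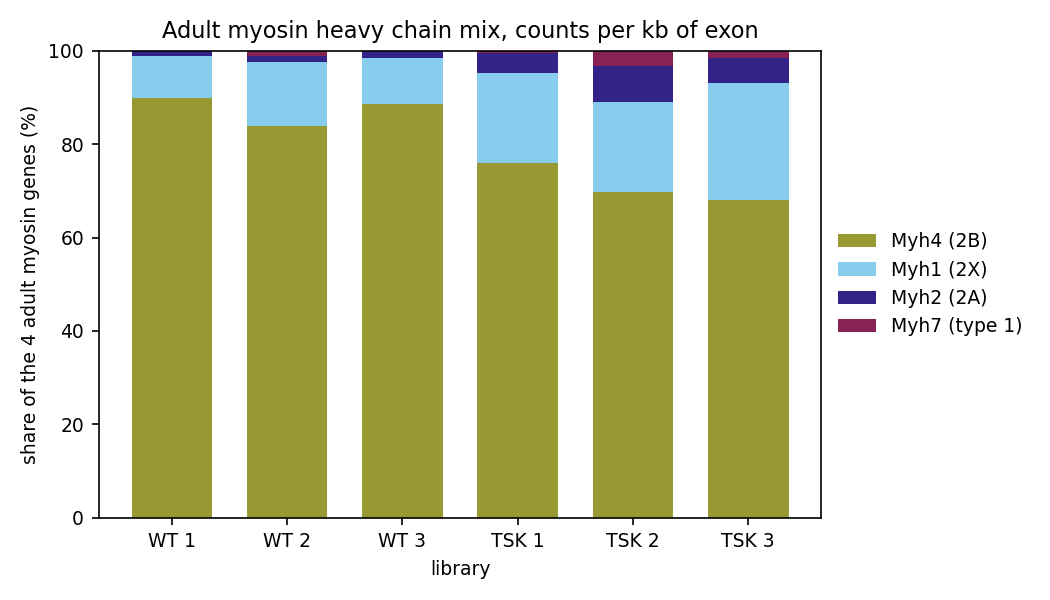
Share of Myh4, Myh1, Myh2 and Myh7 in their summed level per library, in percent, as 1 stacked bar per mouse from 0 to 100%. Myh4 takes 83.8% to 90.0% of the bar in WT and 68.0% to 75.9% in TSK.

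The slow myosin took a small and uneven part of this sum. Myh7 made up 0.00678%, 1.09% and 0.00468% in WT and 0.408%, 3.33% and 1.64% in TSK. WT 2 lay above TSK 1, so the groups overlapped (exact permutation p = 0.2).

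All 4 slow genes shared 1 pattern over the libraries. Myh7 (chromosome 14, 54970684 to 54994626, minus strand) had 2.35, 541 and 2.12 CPM in WT and 135, 980 and 469 CPM in TSK. Tnni1, the slow troponin I (chromosome 1, 135779434 to 135810989, plus strand), had 5.52, 36.8 and 5.94 CPM in WT and 7.37, 77.9 and 31.0 CPM in TSK. Tnnt1, the slow troponin T (chromosome 7, 4504570 to 4516382, minus strand), had 10.4, 99.0 and 16.7 CPM in WT and 28.8, 167 and 77.3 CPM in TSK. In each of them TSK 2 was highest, followed by WT 2, TSK 3 and TSK 1, while WT 1 and WT 3 were lowest. Tnnc1, the troponin C of slow fibres and of the heart (chromosome 14, 31208312 to 31211729, plus strand), kept this order with 4.37, 58.7 and 3.76 CPM in WT and 14.99, 115 and 46.9 CPM in TSK. Neither any fast gene of the 6 nor any of 11 reference muscle genes had this order.

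For each slow gene, 1 WT mouse lay above 2 of the 3 TSK mice, and the SE of the fold change was larger than the fold change itself. The log2 fold changes were 1.10 for Myh7 (SE 1.68), 0.88 for Tnni1 (SE 0.92), 0.72 for Tnnt1 (SE 0.88) and 1.00 for Tnnc1 (SE 1.07), and the edgeR adjusted p values were 0.648 to 0.768. Limma-trend on the deposited CPM with a pseudocount of 1 or 0.1 gave 4.48 and 4.79 for Myh7, 1.95 and 2.11 for Tnnc1, 1.43 and 1.47 for Tnnt1 and 1.21 and 1.28 for Tnni1, with no call. The values also rest on single libraries. Without WT 2 the value of Myh7 was 7.68 (edgeR adjusted p = 0.0172, with 1.39% of all genes called), and those of Tnnc1, Tnni1 and Tnnt1 were 3.64, 2.53 and 2.51 with no call. Without TSK 2 they were 0.30 for Myh7, 0.071 for Tnnc1, -0.13 for Tnni1 and -0.055 for Tnnt1.

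The slow form was then set against the fast form of the same protein within each library, as a log2 ratio of levels per kb. For myosin (Myh7 over the sum of Myh1, Myh2 and Myh4) it was -13.85, -6.51 and -14.38 in WT and -7.93, -4.86 and -5.90 in TSK. For troponin T (Tnnt1 over Tnnt3) it was -4.80, -2.01 and -4.51 in WT and -3.13, -0.54 and -1.96 in TSK. In every one of the 4 families TSK 2 and TSK 3 had the highest ratios, WT 2 came next, and TSK 1 lay above WT 1 and WT 3. The mean difference, TSK minus WT, was 5.35 for myosin (SE 2.70), 2.66 for troponin C (SE 1.502), 1.90 for troponin T (SE 1.16) and 1.74 for troponin I (SE 1.28). The groups overlapped in all 4 through WT 2, and none passed (exact permutation test, two-sided, p = 0.2 for each, and 0.2 adjusted over the 4). Each value depended on single libraries. In the same order of families, the differences were 7.88, 3.84, 2.78 and 2.5 without WT 2, 4.66, 1.92, 1.23 and 0.97 without TSK 2, and 3.95, 1.93, 1.53 and 1.26 without WT 3. Troponin I reached 2.70 without TSK 1.

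**Figure D3:**
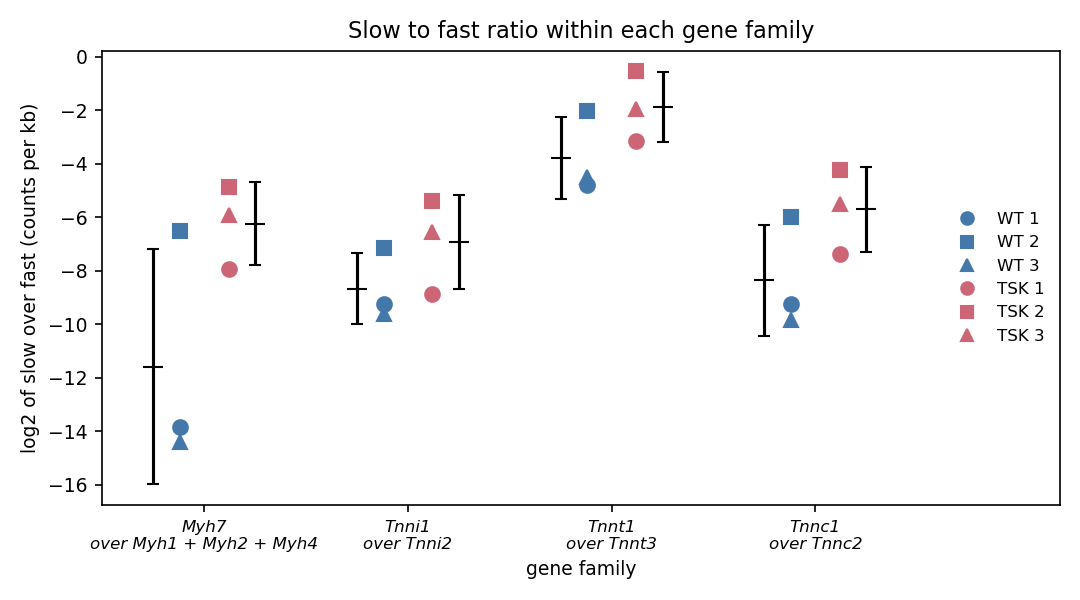
Log2 ratio of slow over fast form per library for the myosins and for troponin I, T and C, with 1 point per mouse and the mean ± SD of each group. In each family the WT 2 point sits with the TSK points, between TSK 3 and TSK 1.

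As 1 value per library, the mean log2 CPM of the slow genes minus that of the fast genes was -8.53, -4.79 and -8.90 in WT and -6.53, -3.57 and -4.75 in TSK. The difference was 2.45 (SE 1.57, exact permutation test, two-sided, p = 0.2). It was 3.76 without WT 2, 1.76 without TSK 2 and 1.70 without WT 3.

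Of all counts, the 10 genes together took 3.75%, 5.43% and 4.90% in WT and 3.60%, 3.25% and 3.14% in TSK. All TSK libraries lay below all WT libraries, with means of 4.69% ± 0.860 and 3.33% ± 0.240 (SD, n = 3, exact permutation test, two-sided, p = 0.1, the smallest possible, and 0.15 adjusted over 3 sums). Nearly all of this was fast RNA, since the slow genes together took 0.00226% to 0.0735% in WT and 0.0186% to 0.134% in TSK (exact permutation p = 0.3).

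To set each gene against muscle as a whole, its log2 CPM was taken relative to the mean of 11 muscle genes taken as the reference. These were Acta1, Ttn, Neb, Des, Tcap, Ldb3, Myom1 and Klhl41 of the sarcomere and its surroundings, and Ryr1, Cacna1s and Jph1, which serve calcium release. All 11 of these had log2 fold changes below 0, with a median of -0.73 and 0 called by edgeR (6 at an unadjusted p below 0.05, against 7.90% of all genes in this direction, and 5 called by DESeq2, against 7.48%). Without WT 1 edgeR called 7 of the 11 (6.13% of all genes), and with no filter it called 2 (3.98%). Of all genes tested, 53.0% were lower in TSK and the median was -0.03. With library size only the median of the 11 was -0.42. Relative to them the fast troponins lay close to 0. The difference, TSK minus WT, was -0.06 for Tnni2 (SE 0.051), -0.03 for Tnnt3 (SE 0.18) and -0.15 for Tnnc2 (SE 0.086), with overlapping groups (exact permutation test, two-sided, p = 0.4, 1 and 0.2). The fast myosins lay further out. Myh2 had -2.26, -2.00 and -2.00 in WT and -0.45, 0.20 and -0.099 in TSK, a difference of 1.97 (SE 0.21). Myh1 differed by 0.87 (SE 0.27) and Myh4 by -0.41 (SE 0.088). In these 3 the groups did not overlap (exact permutation test, two-sided, p = 0.1, and 0.25 adjusted over the 10 genes). The 4 slow genes differed by 1.68 for Tnni1 to 5.22 for Myh7, and their groups overlapped through WT 2 (exact permutation p = 0.2). With 1 library left out, Tnni1 ranged from 0.93 (without TSK 2) to 2.64 (without TSK 1), Tnnt1 from 1.30 to 2.74, Tnnc1 from 1.75 to 3.71 and Myh7 from 3.79 to 7.77. Of the fast troponins, Tnnc2 ranged from -0.20 to -0.070 and Tnni2 from -0.093 (without WT 1) to -0.016 (without WT 2).

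**Figure D4:**
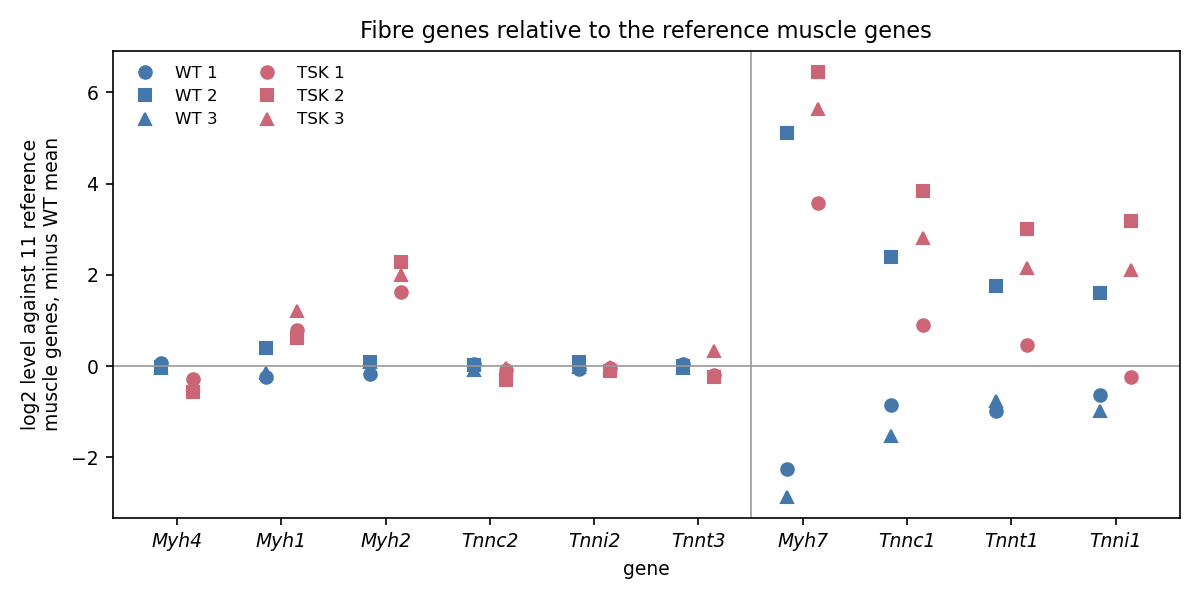
Log2 level of each fibre gene relative to the mean of the 11 reference muscle genes, per library, with the WT mean of the gene set to 0. Myh2 and Myh1 lie higher and Myh4 lower in all 3 TSK libraries, the fast troponins of the groups overlap, and the slow genes of WT 2 lie among those of TSK.

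The sequences before the starts of a fast and a slow pair are shown: Myh2 and Myh4 belong to 1 gene cluster, with Myh1 between them, and have fold changes of opposite sign, and Myh7 and Tnnc1 are the slow genes whose window of 150 bases holds no annotated exon base. The RefSeq promoter table (GRCm38.p6) held 8 of the 10 genes, and Tnni2 and Tnnt3 were not among them. The last 150 bases before the RefSeq start are given 5′ to 3′ on the strand of the gene. They lie at chr11:67170877-67171026 (plus strand) for Myh2, chr11:67237662-67237811 (plus) for Myh4, chr14:54994627-54994776 (minus) for Myh7 and chr14:31208162-31208311 (plus) for Tnnc1. The RefSeq start of Myh4 lies 217 bases upstream of the gene start in the count table. Capitals mark matches, on either strand, to the E-box CANNTG, a core that factors such as MyoD bind, and to the MCAT element CATTCC, bound by TEAD factors.
Myh2: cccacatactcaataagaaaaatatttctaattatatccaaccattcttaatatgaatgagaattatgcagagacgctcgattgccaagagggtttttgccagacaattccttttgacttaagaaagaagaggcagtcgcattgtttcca
Myh4: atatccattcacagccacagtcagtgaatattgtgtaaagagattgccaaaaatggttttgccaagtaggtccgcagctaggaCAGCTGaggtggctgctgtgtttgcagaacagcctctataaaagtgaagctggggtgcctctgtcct
Myh7: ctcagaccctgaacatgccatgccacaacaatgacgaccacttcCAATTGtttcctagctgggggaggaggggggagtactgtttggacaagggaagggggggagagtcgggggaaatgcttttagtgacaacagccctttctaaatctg
Tnnc1: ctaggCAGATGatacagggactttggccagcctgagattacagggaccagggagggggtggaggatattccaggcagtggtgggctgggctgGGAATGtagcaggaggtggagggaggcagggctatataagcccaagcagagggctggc
In the 250 bases before the start, Myh2 held no E-box, no MCAT element and no match to the MEF2 site, while Myh4 held 2 E-boxes, 1 MCAT element and 1 MEF2 site. Myh7 held 1 E-box and 1 MCAT element, and Tnnc1 held 2 E-boxes and 1 MCAT element. Of 32817 promoters of the same length, 66.2% held an E-box, 12.6% an MCAT element and 2.92% a MEF2 site. These matches are letters in a window and were not tested for binding.

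Other genes of fast fibres were at lower levels in TSK as well. All 10 listed genes had log2 fold changes below 0 (53.0% of all genes), from -0.57 for Myh13 to -1.07 for Mybpc2, with a median of -0.85. The 11 reference muscle genes were all below 0 too, with a median of -0.73. Of the 10 fast genes none was called by edgeR, 8 had an unadjusted p below 0.05 (7.90% of all genes, in this direction), and 8 were called by DESeq2 (7.48% of all genes). The median was -0.54 with library size only. Mybpc2, the fast myosin-binding protein C, had 2554, 3438 and 3471 CPM in WT and 2244, 1537 and 1757 CPM in TSK (SE 0.29, edgeR adjusted p = 0.0832). The TSK libraries of Mybpc2 all lay below its WT libraries. Actn3, the alpha-actinin of fast fibres, had 2479, 3659 and 3577 CPM in WT and 2237, 1950 and 1771 CPM in TSK, again without overlap (log2 fold change -1.01, SE 0.29, edgeR adjusted p = 0.0976). Without WT 1, 8 of the 10 were called by edgeR (6.13% of all genes).

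Of 10 other genes used in slow fibres, 8 had log2 fold changes above 0 (47.0% of all genes did) and 2 below, with a median of 0.65, and 0 were called by edgeR (0 also at an unadjusted p below 0.05, and 0 by DESeq2). Myl2, the slow regulatory light chain, had 0.171, 68.8 and 0.495 CPM in WT and 18.4, 175 and 54.1 CPM in TSK. It had the library order of the 4 slow members, as did the light chains Myl3 and Myl6b, and TSK 2 was the highest library in 9 of the 10. The log2 fold changes of Myl2 and Myl3 were 1.404 and 1.19 (SE 1.52 and 1.47). They were 0.22 and 0.070 without TSK 2, and 7.69 and 8.64 without WT 2, where both were called (edgeR adjusted p = 0.0336 for both, with 1.39% of all genes called). Ankrd2, a stretch-responsive protein of slow fibres, had 16.8, 31.2 and 24.6 CPM in WT and 35.9, 70.8 and 43.1 CPM in TSK (log2 fold change 0.73, SE 0.32, edgeR adjusted p = 0.257). This fold change was 0.40 without TSK 2 and 1.05 without WT 2. The groups of Ankrd2 did not overlap on CPM, where 29.1% of all genes were higher in this way, and they overlapped after TMM scaling. Ankrd2 was the 1 gene of this list called in edgeR with library size only (adjusted p = 0.0487, with 8.90% of all genes called) and in limma-trend (adjusted p = 0.0452 and 0.0474, with 9.37% and 9.31% called).

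Among 13 factors that act on fibre type, 11 had log2 fold changes below 0 (53.0% of all genes) and 1 was called lower (0.681% of all genes). Eya4, a transcriptional coactivator, had 38.5, 41.0 and 49.4 CPM in WT and 27.5, 28.8 and 31.6 CPM in TSK. It fell by 0.84 on the log2 scale (SE 0.16, edgeR adjusted p = 0.0288), and every TSK library lay below the WT libraries. The call was lost without WT 2, WT 3 or any of the TSK libraries (adjusted p 0.0645 to 0.117), and without WT 1 there were 5 calls in the list (6.13% of all genes). The median of the list was -0.49, and it was -0.19 when libraries were scaled by size alone, a scaling that moved the median of all genes from -0.03 to 0.25. Tbx15, which favours fast fibres, had a value of -0.88 (SE 0.25, edgeR adjusted p = 0.0976). DESeq2 called Tbx15 and Eya4 (adjusted p = 0.016 for Tbx15, 7.48% of all genes), as did edgeR with no filter (0.0315, 3.98%). Sox6, which holds back slow genes, was at -0.61 (edgeR adjusted p = 0.157), and Prox1, a factor of slow fibres, at 0.12 (adjusted p = 0.871). The others were Eya1 at -0.69, Mef2c and Ppargc1a at -0.58, Six4 at -0.49, Mef2d at -0.35, Maf and Nfatc1 at -0.25, Tead1 at -0.0063 and Vgll2 at 0.58. Whether the list as a whole points to 1 fibre type was not tested.

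**Figure D5:**
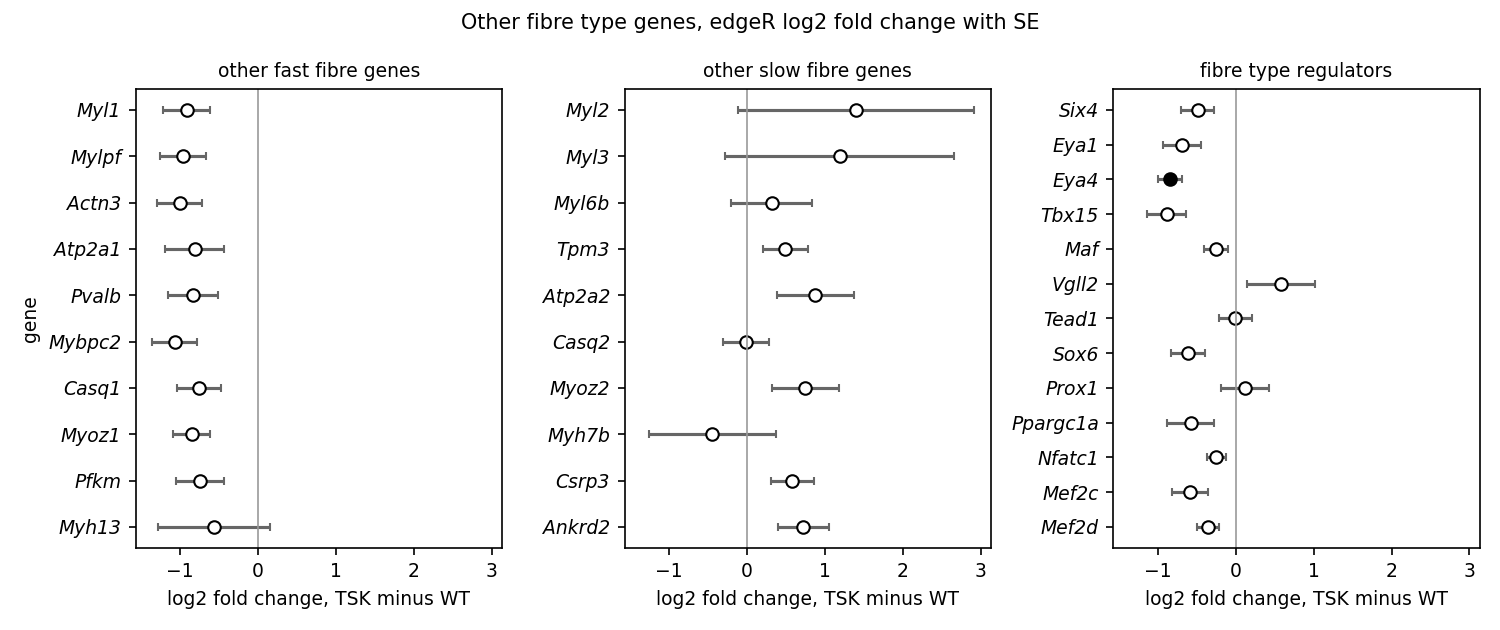
Log2 fold change (TSK minus WT) with its SE for the other fast genes, the other slow genes and the regulators, in 3 panels, where a filled point passed an edgeR adjusted p of 0.05. Of the points shown only Eya4 is filled, all 10 fast genes lie below 0, and the SE bars of Myl2 and Myl3 are the widest.

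Most genes of developing or regenerating muscle fell in TSK. All 9 listed had log2 fold changes below 0, with a median of -1.92, and 8 were called by edgeR (0.681% of all genes were called lower), or 4 of the 9 without WT 3 (0.290% of all genes called in either direction) and 5 without TSK 3 (1.90%). They include the embryonic and perinatal myosins Myh3 and Myh8, neighbours of Myh1, Myh2 and Myh4 on chromosome 11, which fell by 3.30 and 3.31 on the log2 scale (SE 0.35 and 0.44, edgeR adjusted p = 0.00623 and 0.0114). Myod1 was the gene not called (-0.91, SE 0.25, adjusted p = 0.0828).

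Genes with a pattern most like that of the members were looked for by the root mean square difference of centred log2 CPM over the 6 libraries, among 11939 genes with a mean of at least 5 CPM. For the mean of the 4 slow genes the nearest outside the lists were the haemoglobin genes Hba-a1, Hbb-bs, Hba-a2 and Hbb-bt and the natriuretic peptide receptor Npr3, at 1.19 to 1.34 log2 units. The slow genes themselves lay 0.245 (Tnnc1) to 1.68 (Myh7) from their own mean. Myl6b, Myl2 and Myl3, which had the library order of the slow members, lay further off than the haemoglobins, at 1.38, 1.55 and 1.65. This distance thus takes in the size of the differences as well as their order. Hba-a1 had 2.29, 20.4 and 5.80 CPM in WT and 14.1, 26.8 and 9.02 CPM in TSK, with TSK 2 highest and WT 2 next. TSK 2 was highest in all 5 of these genes and WT 2 next in Hba-a1, Hbb-bs and Hbb-bt, but TSK 1 lay above WT 2 in Hba-a2, and WT 2 lay below all TSK libraries in Npr3. In all 5, TSK 1 lay above TSK 3, unlike in the slow genes. Hba-a1 and Hba-a2 are near-identical copies, as are Hbb-bs and Hbb-bt, so reads may have been divided within each pair. The summed adipocyte markers were also highest in TSK 2 (1487 CPM), whereas WT 2, at 86.7 CPM, lay within the WT range. The part of blood or fat in these libraries was not tested.

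For the mean of the 6 fast genes the nearest were Podxl2, Gm43597, Mpdz, Shisa4 and Lmod3, at 0.058 to 0.065 log2 units. The fast genes themselves lay 0.22 (Tnni2) to 0.83 (Myh2) from their own mean. Myh2 and Myh4 lay on opposite sides of that mean in the TSK libraries, and no single fast gene followed it as closely as these 5 did.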

How the data were processed

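Dorsal skin RNA of 6 mice was depleted of ribosomal RNA, and stranded libraries were sequenced as single reads of 50 bases. The submitters' processing notes name bcl2fastq 2.19.1.403, STAR, Partek 11.0 and the mm10 build. The authors deposited a table of estimated counts per gene (in each library 43.3% to 45.4% of values above 0 were whole, to within 0.001) and a table of CPM, in which counts were scaled to 1000000 per library. Counts were rounded to whole numbers before testing, as the design had foreseen for values that are not whole. All value columns belonged to the 6 labelled mice, and no library was a copy of another (lowest chi-square per degree of freedom within a group 8.04).

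The main test was edgeR 4.0.16 (quasi-likelihood, TMM, filterByExpr) in R 4.3.3 over all genes, with Benjamini-Hochberg adjustment, and its settings were tested on simulated counts. Log2 fold changes are TSK minus WT. DESeq2 1.42.0 and limma 3.58.1 (limma-trend on log2(CPM + 1) and log2(CPM + 0.1), on deposited CPM), other scalings, no filter, the replicate number as a block and omission of each library in turn were alternatives. Values per library (ratios, shares and differences) were compared by exact permutation tests over libraries, two-sided. Levels per kb used the exons of protein-coding transcripts in GENCODE M21.

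The members and gene lists were chosen with earlier results of these data known. Named genes were the members, Fbn1, sex-linked genes, genes of the lists, and the 5 genes most like the mean of the fast and of the slow members. Of the planned lists of regulators and of reference muscle genes, 1 gene each is not reported here. The overlapping genes were named after their values were seen. P-values measure the spread between mice.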

Additional observations from a re-analysis of the deposited data

How the results depend on the processing

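The number of fibre members past an adjusted p of 0.05 depended on the tool: 0 with edgeR, 0 with DESeq2's size factors in edgeR, 5 with DESeq2, 2 without a filter (Myh2 and Myh4), and 1 (Myh2) with library size only and with limma-trend at either pseudocount. Leaving out 1 library gave 0 to 5, with 5 without WT 1 and 1 (Myh7) without WT 2. Why the calls differ was not tested. With the replicate number as a block, which called 3.98% of all genes, 1 member was called (Myh2, edgeR adjusted p = 0.0389), as were 3 of the 10 other slow genes (Atp2a2, Myoz2 and Ankrd2), and the value of Myh7 was 4.74, of Tnnc1 1.75 and of Tnnt1 1.18, with no call. These numbers were not taken to pair the libraries, since deviations from the group means correlated by only 0.0112, 0.167 and -0.0938 between libraries of the same number, and 2 of 6 libraries were closest to the library with their own number. Of 286 values of the 10 members, Fbn1 and 11 genes of the lists under the alternatives (the other named genes were not counted here), 241 kept their direction and side of the threshold, 37 gained a call, 5 lost one and 3 reversed, all 3 when a library was left out: Myh1 to -0.17 (range -0.17 to 0.54), Tnni1 to -0.13 (range -0.13 to 2.53) and Tnnt1 to -0.055 (range -0.055 to 2.51). Of 196 values of ratios, shares and relative levels, 194 kept direction and side, and none could pass 0.05 with 3 against 3 mice. Tnnt3 relative to the reference genes reversed without TSK 1 (0.047) and without TSK 2 (0.072), with a range of -0.21 to 0.072. With WT 1 and WT 3 at 2.12 to 2.35 CPM of Myh7, its fold change rests on single mice.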
